A study of Mus musculus with 6 samples.

Results

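Replication-dependent histone genes encode the histone proteins that package newly made DNA. Gene symbols in the deposited table that begin with Hist1 to Hist4 followed by h1, h2a, h2b, h3 or h4 were taken, leaving out symbols that end in -ps and a number. This gave 61 of 27734 genes, of which 58 averaged 1 FPKM or more across the 6 libraries. FPKM counts the sequenced fragments of a gene, scaled to the length of its model and to the mapped fragments of the library. The 61 genes comprised 6 for linker histone H1, 15 for H2A, 16 for H2B, 12 for H3 and 12 for H4, so that 55 encode core histones. Most, 49 genes, belong to the Hist1 cluster on chromosome 13. The others were 8 Hist2 genes on chromosome 3, 3 Hist3 genes on chromosome 11 and 1 Hist4 gene on chromosome 6 (mm10).

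The RNA came from rib chondrocytes, the cartilage-forming cells, of mouse embryos late in gestation (E18.5). The wild-type group had 3 libraries, and 3 more came from Jab1flox/flox; Col2a1-Cre conditional knockouts, called mutant here. Col2a1 drives Cre in cartilage cells, and whether cells of other types in the same digest keep Jab1 was not measured. No further allele of the wild-type group is given in the sources used here, nor is it said whether each library is a separate embryo, so the spread that p-values are measured against may be technical. Libraries are named by their column number, 0 to 2, in each group.

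As background, these genes are switched on at the start of S phase through the factor NPAT, and their mRNAs fall again when DNA synthesis ends. Their mRNAs have no introns and, in dividing cells, usually no poly(A) tail. They end just after a stem-loop that is bound by SLBP and cut with the help of the U7 small nuclear RNA. Core histones H2A, H2B, H3 and H4 form the nucleosome, and linker histone H1 binds the DNA entering and leaving it. Growth plate chondrocytes divide in columns before they stop and enlarge, so histone mRNA is abundant in dividing cartilage.

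The stem-loop is shown because it is the shared feature that sets how these mRNAs are processed and whether their ends lie inside a gene model. The GENCODE M21 transcripts of 59 members that matched by identifier were searched for 16 bases that begin GG, end CC, pair as 6 stem bases and enclose a loop of 4 bases that begins TT. One gene is printed for each of the 6 stem-loop sequences found, 5′ to 3′ with 5 flanking bases in lower case and the stem-loop in capitals.
Hist1h1e: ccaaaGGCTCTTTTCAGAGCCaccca
Hist1h1t: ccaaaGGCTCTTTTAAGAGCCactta
Hist2h2ac: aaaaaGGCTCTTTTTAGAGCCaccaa
Hist1h4d: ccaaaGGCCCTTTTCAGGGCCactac
Hist2h4: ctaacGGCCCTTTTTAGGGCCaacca
Hist1h4b: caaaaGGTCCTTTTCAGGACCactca
A stem-loop of this form was present in the models of 37 of 59 members, against 86 of 21799 other protein-coding genes (0.395%). The form printed for Hist1h1e was held by 3 H1, 6 H2A, 6 H2B and 5 H3 genes. All 10 H4 genes with a stem-loop had one of the last 3 forms, which no gene of another class had. In these models 11 to 4884 bases followed the stem-loop, the longest in Hist1h1d. The models of the other 22 members hold no such sequence, and whether their annotated end is the true end of the mRNA was not tested.

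The H1 promoters are shown because all 6 H1 genes had estimates of the same sign in the comparison of genotypes. The windows are the 150 bases before the gene start in RefSeq (GRCm38.p6), on the gene's strand, with AAACACA (known as the H1 box), CCAAT and TATAAA in capitals on either strand.
Hist1h1c (chr13:23738657-23738806, + strand): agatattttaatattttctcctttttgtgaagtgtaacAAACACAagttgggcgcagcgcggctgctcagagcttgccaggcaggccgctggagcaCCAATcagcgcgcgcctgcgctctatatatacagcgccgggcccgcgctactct
Hist1h1e (chr13:23622559-23622708, - strand): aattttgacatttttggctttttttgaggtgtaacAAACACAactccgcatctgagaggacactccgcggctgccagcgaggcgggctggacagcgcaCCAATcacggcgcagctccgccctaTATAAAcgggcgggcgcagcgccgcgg
Hist1h1a (chr13:23763518-23763667, + strand): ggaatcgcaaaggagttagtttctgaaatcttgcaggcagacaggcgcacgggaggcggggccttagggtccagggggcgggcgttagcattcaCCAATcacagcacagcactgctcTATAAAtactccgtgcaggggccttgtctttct
Hist1h1t (chr13:23695661-23695810, + strand): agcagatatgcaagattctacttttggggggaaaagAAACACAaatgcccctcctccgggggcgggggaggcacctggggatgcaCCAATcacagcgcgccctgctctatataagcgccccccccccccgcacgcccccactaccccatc
H1f0 (chr15:79028062-79028211, + strand): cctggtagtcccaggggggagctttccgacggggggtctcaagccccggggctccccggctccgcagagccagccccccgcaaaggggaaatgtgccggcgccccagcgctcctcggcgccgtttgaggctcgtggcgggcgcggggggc
H1f0, the replacement linker histone that is made outside S phase, is no member of the group and is printed for contrast. Over the 250 bases before the start, on both strands, AAACACA was found in 5 of 6 H1 windows (83.3%), in 3 of 48 core windows (6.25%) and in 6.25% of all 32851 RefSeq windows. Hist1h1a was the H1 gene without it. In the windows of Hist1h1c, Hist1h1e, Hist1h1t, Hist1h1b and Hist1h1d its first base lay at -112, -115, -114, -117 and -122 from the start. CCAAT was found in 6 of 6 H1, 14 of 14 H2A and 13 of 13 H2B windows but in 3 of 11 H4 windows (27.3%), and in 33.8% of all windows. The octamer ATTTGCAT was found in 7 of 14 H2A and 5 of 13 H2B windows, in no H1, H3 or H4 window, and in 1.6% of all windows. The 150 bases of H1f0 held none of the 3 motifs in capitals. These matches are descriptions of the letters and not evidence of bound factors.

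Several facts of the whole series touch the results. Cops5, which encodes Jab1, was 42.3, 39.8 and 40.1 FPKM in the wild-type libraries and 17, 18 and 17.2 FPKM in the mutant libraries (log2 fold change -1.18, SE 0.0599, limma adjusted p = 0.00065). Column totals ran from 571180 to 631534 FPKM, and the median log2 fold change of all 14012 genes tested was 0. The title of wild-type column 0 carries day 30 of the month, and the other titles matched to a column carry day 24. The Y-linked gene Ddx3y was 0.0281 to 0.45 FPKM in the wild-type and 7.78 to 46.1 FPKM in the mutant libraries, so embryo sex and genotype cannot be told apart. Mutant column 0 held both Ddx3y, at 7.78 FPKM, and the female transcript Xist, at 37.3 FPKM. The 4 globin genes of the 9 erythroid markers fell. Alas2, which passed the filter only through the wild-type libraries, is not counted, and the other 4 were under the filter. The summed erythroid list was 196 to 221 FPKM in the wild-type and 15 to 49.6 FPKM in the mutant libraries, with Hemgn listed at 0 in every mutant library. Of the myeloid list, 2 of 7 tested genes fell, and its sum was 95 to 250.2 FPKM against 15.9 to 38.4 FPKM. These were S100a8 and S100a9, which made up most of the wild-type sum. Cd68 and Csf1r overlapped between groups, with log2 fold changes of 0.43 and -0.1. Lyz2, Ptprc and Mpo did not pass but were lower without overlap, as were 15.9% of all genes. Ptprc and Mpo passed the filter only through the wild-type libraries. The muscle list sum was 139 to 169 FPKM against 49.8 to 72.3 FPKM, with 1 of 4 tested genes falling. That gene, Tnnt3, made up most of the sum, at 123 to 162 FPKM against 41.6 to 63.5 FPKM. Acta1, Ckm and Myh8, the others tested, were low and overlapped between groups. The fibroblast list sum was 1278 to 1287 FPKM against 777 to 1255 FPKM, with 2 of 5 falling. These were Lum and Dcn, which made up most of the sum. The other 3 tested, Postn, Col3a1 and Pdgfra, had log2 fold changes above 0, and the list median was 0.28. Of the 8 chondrocyte markers, 2 fell, and their sum overlapped between groups, at 6843 to 8016 FPKM in the wild-type and 4643 to 8059.9 FPKM in the mutant libraries. Of the endothelial and osteoblast lists 0 of 3 and 0 of 4 tested genes passed, and their sums overlapped between groups. Marker calls depended on the setting: Hba-a1 passed in 11 and S100a9 in 14 of 16 alternatives. The part of these other cell types in the histone results was not tested.

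No histone gene passed the test between genotypes. The test was limma on log2(FPKM + 1), two-sided, with Benjamini-Hochberg adjustment over all genes tested. Rose and fell are used only for an adjusted p under 0.05. Over all genes 850 of 14012 (6.07%) passed, 487 higher (3.48%) and 363 lower (2.59%) in mutants, against 0 of 58 histone genes. At an unadjusted p under 0.05, 6 histone genes were lower and 2 higher, where 12% and 12.7% of all genes (24.7% together) were. In the same 8 genes the groups did not overlap, as in 32.2% of all genes. The smallest adjusted p of a histone gene was 0.055, for Hist3h2a. The median log2 fold change of the 58 genes was -0.08. Classes differed in their medians: -0.63 for H1, 0 for H2A, -0.02 for H2B, -0.15 for H3 and -0.04 for H4.

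**Figure D1:**
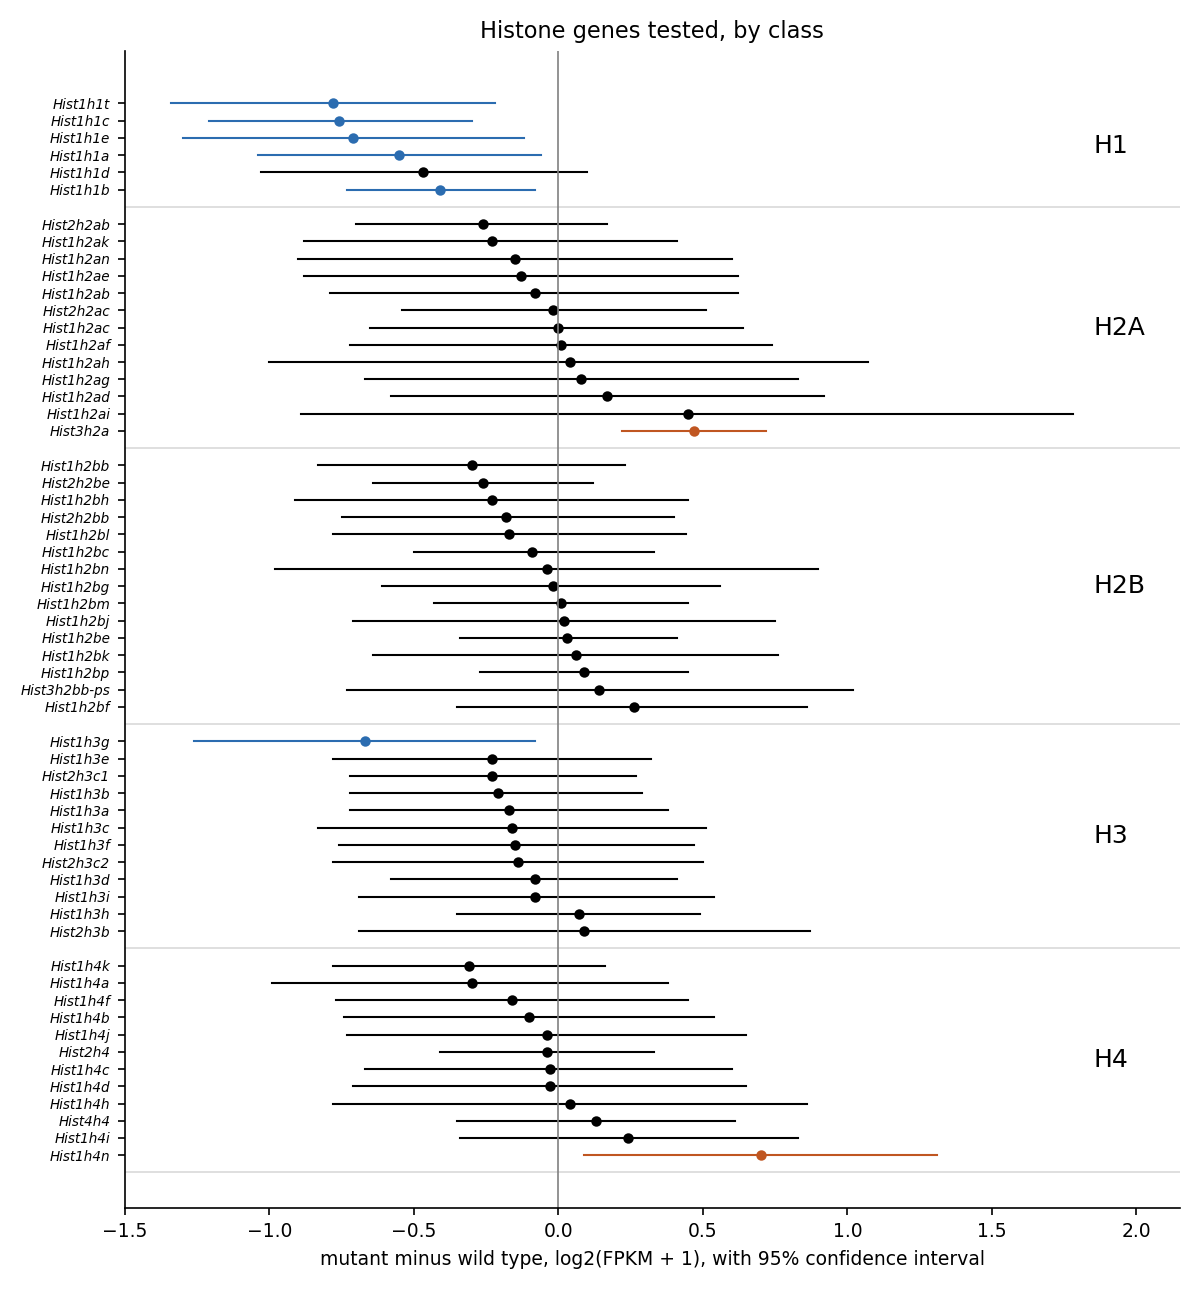
Log2 fold change of each of the 58 histone genes tested, mutant minus wild type on the log2(FPKM + 1) scale, with its 95% confidence interval, grouped by class. Blue marks the 6 genes whose mutant libraries were all below every wild-type library, orange the 2 genes with all mutant libraries above, and black genes whose groups overlap.

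Linker histone mRNAs were lower in mutants for every H1 gene by its estimate, although no single gene passed. All 6 log2 fold changes were negative, from -0.76 to -0.41 for the 5 abundant genes and -0.78 for the low Hist1h1t. In 5 of the 6 genes every mutant library was below every wild-type library, a pattern found in 15.9% of all genes tested. Hist1h1t is among these 5, although it passed the filter only through the wild-type libraries. Of the 5 abundant genes, Hist1h1d was the only one whose groups overlapped. In bulk RNA, fewer cells in S phase and less histone mRNA per cell cannot be told apart.

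Hist1h1e was the most abundant H1 gene, at 796, 558 and 506 FPKM in the wild-type and 482, 348 and 305 FPKM in the mutant columns 0, 1 and 2. Every mutant value lay below the lowest wild-type value, and column 0 was the highest of its group in both genotypes. The means were 620 ± 155 and 378 ± 92.1 FPKM (SD, n = 3), with a log2 fold change of -0.71 (SE 0.241; adjusted p = 0.15 by limma). Its gene model overlaps those of Hist1h2be and Gm11398 on the same strand, and 68% of its 50-base windows, the length of the reads, occurred in no other gene's transcript.

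Hist1h1c had the smallest p of the class. It was 295, 211 and 189.8 FPKM in the wild-type and 150.2, 133 and 121 FPKM in the mutant libraries. The groups stood clear of each other, at means of 232 ± 55.7 and 135 ± 14.5 FPKM (SD, n = 3). The log2 fold change was -0.76 (SE 0.184, 95% interval -1.21 to -0.3, limma adjusted p = 0.073). With quantile normalization the limma adjusted p was 0.049 and with only protein-coding genes tested it was 0.026, so the call turned on the setting. Hist1h1c is an H1 gene that is also expressed, with a poly(A) tail, in cells that no longer divide, and its model ran 840 bases past the stem-loop.

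Hist1h1d, the second most abundant, was 429.7, 258 and 266 FPKM in the wild-type and 264, 213 and 199 FPKM in the mutant libraries. Mutant column 0 lay between wild-type columns 1 and 2, so the groups overlapped. The log2 fold change was -0.47 (SE 0.23, limma adjusted p = 0.28). Hist1h1a was 354, 214 and 265 FPKM against 205, 185 and 167 FPKM. Its groups did not overlap, but the wild-type spread was wide, and the log2 fold change of -0.55 had an SE of 0.198 (limma adjusted p = 0.16).

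Hist1h1b is the H1 gene that lies apart from the others, in the part of the cluster from 21715763 to 22043676 on chromosome 13. It was 183, 154 and 148 FPKM in the wild-type and 141, 113 and 111 FPKM in the mutant libraries. Its log2 fold change of -0.41 was the smallest of the class (SE 0.133, limma adjusted p = 0.14), with no overlap between groups. Hist1h1t encodes a linker histone known from testis and was near the lower limit of the test. It was 1.92, 2.03 and 3.08 FPKM in the wild-type and 1.48, 0.686 and 0.709 FPKM in the mutant libraries (log2 fold change -0.78, SE 0.227, limma adjusted p = 0.11). Its mutant mean of 0.957 FPKM was under the filter, so that it was tested only through the wild-type libraries, and its size depended on the pseudocount: the log2 fold change was -1.26 with a pseudocount of 0.1 and -0.98 with 0.5. With only protein-coding genes tested its limma adjusted p was 0.043. With a minimum mean of 5 FPKM, which leaves it out, the H1 median was -0.55 and all 5 genes were below 0.

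**Figure D2:**
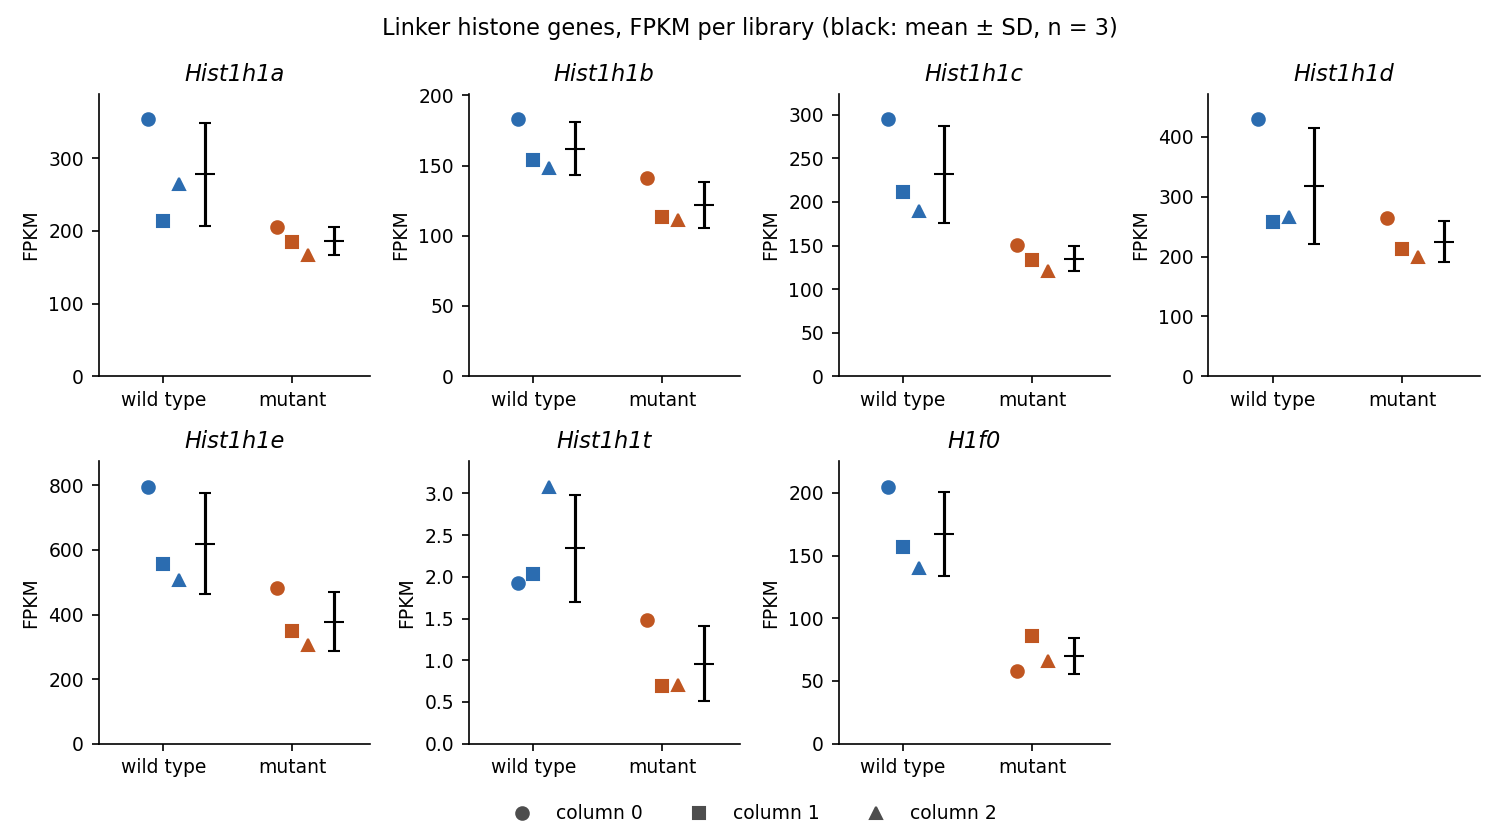
FPKM of the 6 replication-dependent H1 genes and of H1f0 in each library, with wild-type libraries in blue, mutant libraries in orange and the column number given by the marker shape; black bars are the mean ± SD of 3 libraries. Mutant libraries lie below all wild-type libraries in every panel but Hist1h1d, where mutant column 0 at 264 FPKM lies between wild-type columns 1 and 2.

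The H1 pattern did not rest on wild-type column 0 for its direction. Without that library all 6 log2 fold changes were still negative, from -0.87 to -0.23 with a median of -0.44. In 5 of 6 genes, all but Hist1h1d, the groups again did not overlap, where 21.3% of all genes did so with 5 libraries. The low Hist1h1t is again among these 5 genes. Without mutant column 0 the H1 median was -0.73 and the core median -0.18. In a fit with the level of Y-linked genes as a covariate the H1 median was 0.06, and 2 of 6 genes were below 0. That covariate nearly follows genotype, so the part of sex in the H1 values cannot be told apart from that of genotype.

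Core histone mRNAs overlapped between genotypes for 49 of the 52 genes tested. Their median log2 fold change was -0.04, with 33 of 52 below 0, beside 7086 of 14012 genes. One gene, Hist1h3g, had every mutant library below the wild-type libraries, and 2 genes, Hist3h2a and Hist1h4n, had every mutant library above. Over all genes 15.9% were without overlap and lower and 16.3% without overlap and higher. The larger difference ran between libraries of the same genotype: wild-type column 0 was the highest library for 38 of the 52 core genes and for 43 of all 58 histone genes (74.1%), against 16.7% of all genes. Wild-type column 0 and mutant column 0 were the 2 highest libraries for 30 core genes, and the lowest was wild-type or mutant column 1 for 43. Without wild-type column 0 the core median was 0.19, with 11 of 52 below 0. It was also positive without mutant column 1, at 0.07 with 21 of 52 below 0, and with the Y-linked covariate, at 0.44 with 8 of 52 below 0, so the sign of the core median turned with single libraries and with that covariate. With wild-type column 0 left out, 8 of 52 core genes had all mutant libraries above the wild-type ones, against 20.3% of all genes. In 1 core gene they were all below, against 21.3% of all genes.

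Among H2A genes, which pair with H2B in the nucleosome, Hist1h2ak had the highest mean. It was 164, 86.8 and 113 FPKM in the wild-type and 119, 81.6 and 101 FPKM in the mutant libraries (log2 fold change -0.23, SE 0.26). Hist2h2ac was 114, 70.6 and 73.6 FPKM against 97.2, 73.2 and 80.7 FPKM, a log2 fold change of -0.02 (SE 0.214). Hist1h2ab was 117, 62.5 and 68.1 FPKM against 93.7, 59.3 and 75.4 FPKM, a log2 fold change of -0.08 (SE 0.286). In all 3 genes the highest value was wild-type column 0, and the groups overlapped. The 95% interval for Hist1h2ab, -0.79 to 0.62, shows how wide a difference these libraries leave possible. Of the other H2A genes, Hist1h2ai was the most variable, at 2.46 to 3.02 FPKM in the wild-type and 1.16 to 8.46 FPKM in the mutant libraries. Only 9.88% of its windows were unique to it.

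Among H2B genes, Hist2h2bb had the highest level of the class, at 1002, 585 and 780 FPKM in the wild-type and 830.4, 635 and 600.3 FPKM in the mutant libraries. Its groups overlapped (log2 fold change -0.18, SE 0.233), and 0% of its windows were unique to it, so its level is uncertain. Hist1h2bb was 341, 195 and 242 FPKM against 223, 183 and 212 FPKM, with the most negative estimate of the class (log2 fold change -0.3, SE 0.216). Hist1h2bj was 114, 60.6 and 71.4 FPKM against 108, 63.3 and 75.1 FPKM (log2 fold change 0.02, SE 0.295). All 15 H2B genes tested had overlapping groups, with log2 fold changes from -0.3 to 0.26.

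H3 genes had the lowest median of the core classes, with 10 of 12 estimates below 0, beside 7086 of 14012 genes. Without wild-type column 0 the H3 median was 0.08, and with the Y-linked covariate it was 0.25. Hist1h3b was 166, 102 and 120.2 FPKM in the wild-type and 129, 96.1 and 105 FPKM in the mutant libraries (log2 fold change -0.21, SE 0.206). Hist1h3a was 109.9, 61 and 70 FPKM against 71.5, 62.8 and 72.5 FPKM (log2 fold change -0.17, SE 0.223). In both, wild-type column 0 stood above the other 5 libraries, and the rest overlapped. Hist2h3b was 89, 60.4 and 55.6 FPKM against 109, 64.3 and 51.7 FPKM, with 0% unique windows. Hist1h3g was 36.5, 18.9 and 31.8 FPKM against 16.2, 18.3 and 17.4 FPKM. Its mutant libraries were all lower, by a narrow gap to wild-type column 1, and the log2 fold change of -0.67 (SE 0.24) had a limma adjusted p of 0.16. Without wild-type column 1 it was -0.94, with a limma adjusted p of 0.029. Its model held no stem-loop, and 45.9% of its windows were unique.

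H4 genes included the most abundant core gene with a largely unique sequence, Hist1h4d, in which 89.8% of windows were unique. It was 903, 502 and 602 FPKM in the wild-type and 842, 547 and 558 FPKM in the mutant libraries. Both column 0 libraries stood above the other 4, and the log2 fold change was -0.03 (SE 0.276). Hist1h4c was 436, 253 and 260.2 FPKM against 368, 289 and 252 FPKM, also with a log2 fold change of -0.03 (SE 0.257). Hist1h4h was 262, 120 and 139 FPKM against 219.9, 141 and 155 FPKM (log2 fold change 0.04, SE 0.333). Hist1h4n was low, at 0.779, 0.975 and 1.28 FPKM in the wild-type and 2.95, 1.31 and 2.72 FPKM in the mutant libraries. Its groups were parted by a small gap, with a log2 fold change of 0.7 (SE 0.247; adjusted p = 0.16 by limma), and 14.4% of its windows were unique.

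Genes outside the main cluster did not follow wild-type column 0 as often: it was the highest library for 36.4% of the 11 tested there and for 83% of the Hist1 genes. Hist3h2a, an H2A gene on chromosome 11 (58954685 to 58956830, mm10), was the histone gene nearest to the threshold. It was 13.5, 10.6 and 11 FPKM in the wild-type and 16.6, 15.9 and 16.8 FPKM in the mutant libraries. The mutant libraries lay close together and above all wild-type libraries, at means of 16.5 ± 0.478 and 11.7 ± 1.58 FPKM (SD, n = 3). The log2 fold change was 0.47 (SE 0.1, 95% interval 0.22 to 0.72, limma adjusted p = 0.055). The limma adjusted p was 0.045 with a minimum mean of 5 FPKM, 0.046 without wild-type column 0 and 0.026 with protein-coding genes only. Its model overlaps Trim17 on the same strand, and 68.5% of its windows were unique. Its neighbour Hist3h2bb-ps, annotated as a pseudogene, was 0.413 to 1.27 FPKM in the wild-type and 0.672 to 2.33 FPKM in the mutant libraries.

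The remaining genes outside the main cluster overlapped between groups. Hist2h4, an H4 gene with 99% unique windows, was 26.8, 30.3 and 24.9 FPKM in the wild-type and 32.7, 22.9 and 24.9 FPKM in the mutant libraries (log2 fold change -0.04, SE 0.149). Hist4h4 was 8.55, 5.09 and 4.96 FPKM against 7.01, 6.34 and 6.67 FPKM (log2 fold change 0.13, SE 0.195). Hist2h2ab was 8.91, 8.48 and 10.1 FPKM against 9.75, 5.78 and 7.28 FPKM (log2 fold change -0.26, SE 0.178). For Hist2h4 the mutant values lay on both sides of the wild-type range, and for Hist4h4 and Hist2h2ab at least 1 mutant library lay within it. Hist2h2be, whose windows were 100% unique, was 1.49 to 1.94 FPKM in the wild-type and 1.07 to 1.62 FPKM in the mutant libraries. Hist2h3c1, with 0% unique windows and a same-strand overlap with Gm20634, was 1.93 to 3.21 FPKM against 1.42 to 2.47 FPKM. Hist2h3c2, with 36.5% unique windows, was 0.902 to 1.4 FPKM against 0.448 to 1.6 FPKM. All of these were low, and none stood apart between groups.

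Within the Hist1 cluster, the 28 tested genes from 23531050 to 23764406 had a median log2 fold change of -0.14, and the 17 from 21715763 to 22043676 had one of 0.02. With H1 genes left out the core medians were -0.09 and 0.03. Hist1h2bh and Hist1h2bm, without a GENCODE match, had log2 fold changes of -0.23 and 0.01. The 3 genes below the filter were Hist1h2aa, at 0 to 0.21 FPKM, Hist1h2al, a pseudogene at 0 to 0.648 FPKM, and Hist3h2ba, at 0 to 0.232 FPKM.

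Paralogs can share reads, so levels were also summed by class. The summed H1 level was 2061, 1397 and 1378 FPKM in the wild-type and 1243, 993 and 905 FPKM in the mutant libraries. Every mutant sum was below every wild-type sum, with means of 1612 ± 389 and 1047 ± 175 FPKM (SD, n = 3) and a log2 ratio of -0.62. Summed core histone levels were 5612, 3174 and 3784 FPKM against 4599, 3344 and 3534 FPKM. These overlapped, with a log2 ratio of -0.13. By class the log2 ratios were -0.11 for H2A, -0.17 for H2B, -0.18 for H3 and -0.08 for H4, all with overlap. All 61 genes together summed to 7673, 4571 and 5162 FPKM against 5841, 4337 and 4439.5 FPKM, a log2 ratio of -0.25. Without wild-type column 0 the log2 ratio was 0 for all genes together, -0.41 for H1 and 0.14 for the core genes.

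**Figure D3:**
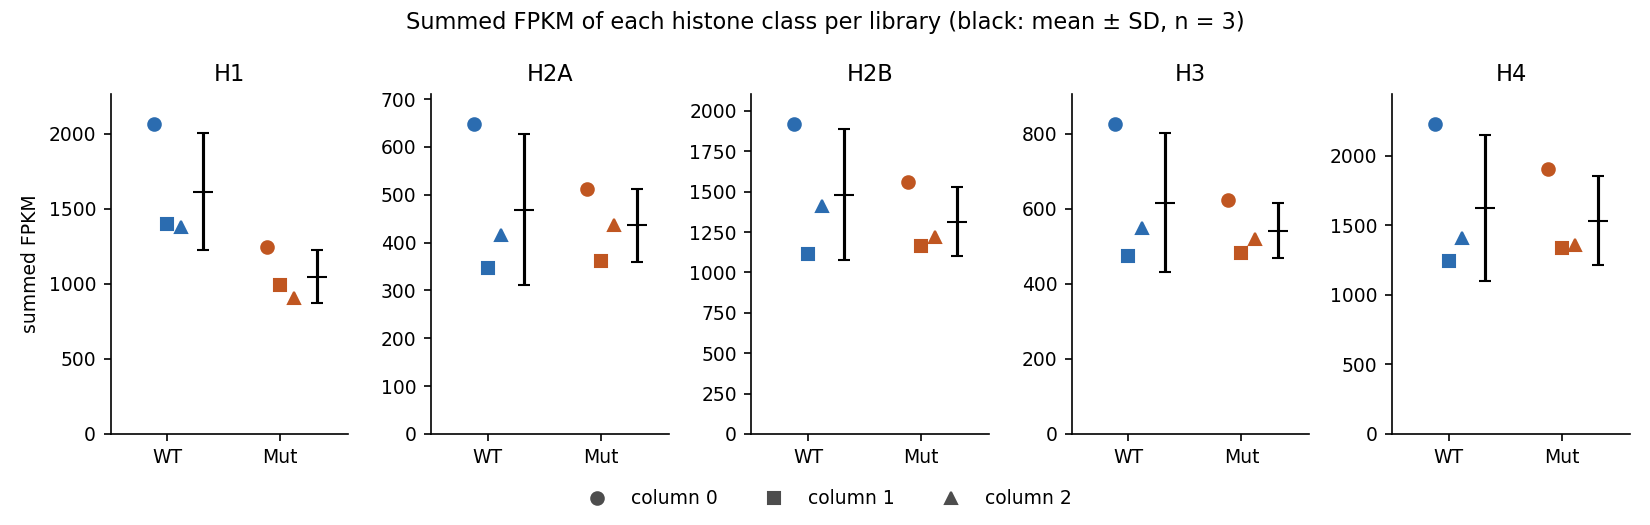
Summed FPKM of each histone class in each library, wild type in blue and mutant in orange, column number by marker shape, with the mean ± SD of 3 libraries in black. Column 0 is the highest library of each group in every class, and the groups are parted for H1, where mutant sums end at 1243 FPKM and wild-type sums begin at 1378 FPKM.

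Set against the core histones of the same library, H1 mRNA was a smaller part in mutants. Summed H1 was 36.7%, 44% and 36.4% of the summed core level in the wild-type and 27%, 29.7% and 25.6% in the mutant libraries. Wild-type column 0 was not the highest by this measure, and every mutant library was below every wild-type library, at 39% ± 4.29 and 27.4% ± 2.07 (SD, n = 3; log2 ratio -0.51). The log2 ratio was -0.54 against H2A, -0.47 against H2B, -0.46 against H3 and -0.56 against H4. Without Hist2h2bb, which has no unique windows, the percentages were 44.7, 53.9 and 45.9 in the wild-type and 33, 36.7 and 30.9 in the mutant libraries. No p is given for these sums over genes. Of the summed FPKM of the 61 genes, H1 made up 28% ± 2.18 in the wild-type and 21.5% ± 1.27 in the mutant libraries (SD, n = 3). H4 made up 27.8% ± 1.04 and 31.3% ± 1.08. Gene models run past the stem-loop by different lengths, so these are shares of FPKM and not of mRNA molecules.

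The 5 abundant genes made up nearly all of summed H1 FPKM in both groups. Hist1h1e gave 38.4% ± 1.62 of summed H1 in the wild-type and 35.8% ± 2.62 in the mutant libraries (SD, n = 3). Hist1h1d gave 19.5% ± 1.21 and 21.5% ± 0.414, Hist1h1a 17.2% ± 1.97 and 17.9% ± 1.2, Hist1h1c 14.4% ± 0.675 and 13% ± 0.766, and Hist1h1b 10.2% ± 1.16 and 11.7% ± 0.546. Hist1h1t gave 0.154% ± 0.0655 and 0.0887% ± 0.0265. By mean share the H1 genes ranked in the same order in both groups.

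**Figure D4:**
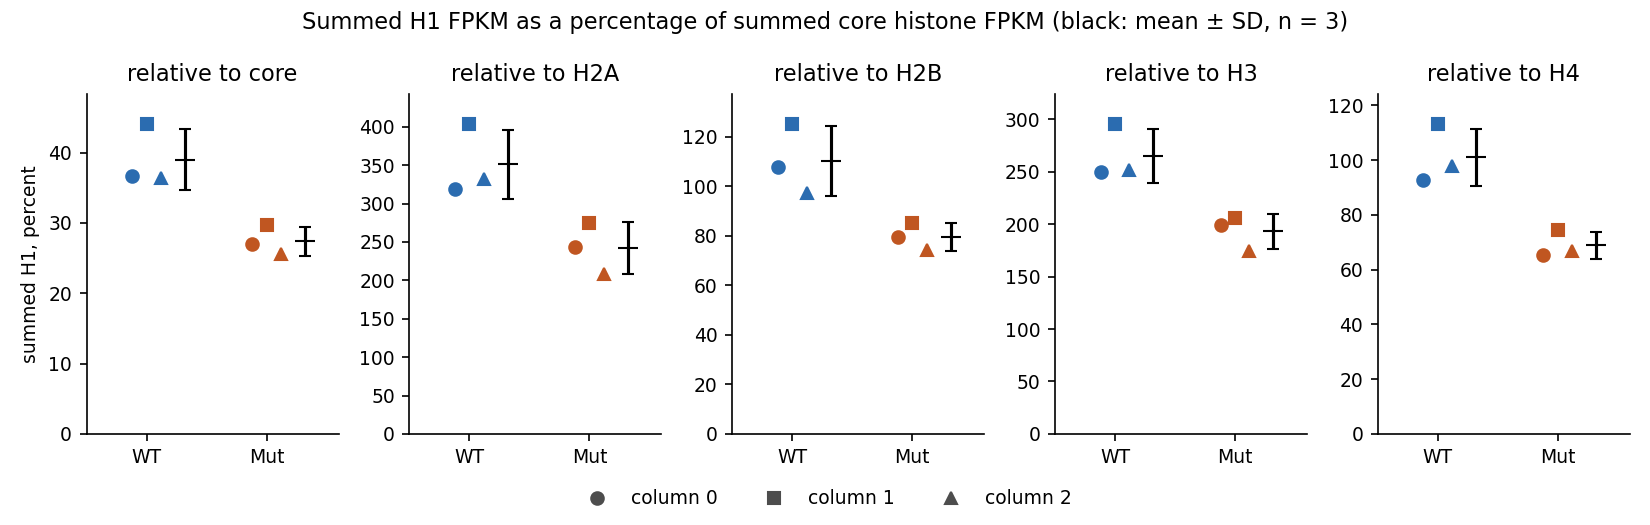
Summed H1 FPKM as a percentage of the summed FPKM of all core histones and of each core class in each library, wild type in blue and mutant in orange, with the mean ± SD of 3 libraries in black. In each panel the mutant libraries lie below the wild-type libraries; relative to all core genes they run from 25.6% to 29.7%, against 36.4% to 44%.

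How much of a gene's sequence occurs in no other gene differed by class. Windows were matched on either strand against all transcripts, so overlapping and antisense models count as well as paralogs. Hist2h2bb and Hist2h3b, both at 0%, overlap Gm20628 on the opposite strand. The median share of 50-base windows found in no other gene was 98.85% for H1, 35.2% for H2A, 53.1% for H2B, 38.05% for H3 and 65.8% for H4. Core genes with at least 50% unique windows had a median log2 fold change of -0.04, and those with less had one of -0.08. Core genes with a stem-loop in the model had a median of -0.03, and those without had -0.12. A further 9 genes of the same naming pattern in GENCODE M21 were not analysed here, among them Hist1h2ba and both Hist2h2aa genes, and their reads could have been counted to paralogs.

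No gene of the machinery that makes and trims histone mRNA passed the test. Of 17 tested genes for histone transcription and processing, 0 rose and 0 fell by limma, with a median log2 fold change of 0.04, and 1 gene had an unadjusted p under 0.05, beside 24.7% of all genes. Slbp, the stem-loop binding protein, was 39.1, 31.3 and 37.7 FPKM in the wild-type and 39.3, 42.3 and 40.5 FPKM in the mutant libraries (log2 fold change 0.18, SE 0.0984, limma adjusted p = 0.33). Npat, the activator of these genes, was 13.6, 13.7 and 13.7 FPKM against 13.9, 15.1 and 14 FPKM (log2 fold change 0.06, SE 0.0595). Zcchc6, which adds uridines to histone mRNAs as they decay, was 12.3, 13.1 and 12.5 FPKM against 15.8, 14.2 and 13.9 FPKM (log2 fold change 0.2, SE 0.0711, limma adjusted p = 0.16). These 3 genes, Srrt and Ncbp1, 5 of the 17, were without overlap and higher in mutants, as were 16.3% of all genes. Lsm11, a protein of the U7 particle, was without overlap and lower, at 1.62 to 1.73 FPKM in the wild-type and 1.14 to 1.58 FPKM in the mutant libraries (log2 fold change -0.16, SE 0.133).

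The other processing genes overlapped between groups. The promoter-binding factors Hinfp and Pou2f1 had log2 fold changes of 0.16 and 0.04, and the NPAT partner Casp8ap2 had -0.05. Of the cleavage proteins, Cpsf3 had -0.1, Cpsf2 0.02, Cstf2 -0.01 and Sympk -0.04. Of genes for decay of histone mRNA, Eri1 had 0.07, Upf1 -0.13 and Lsm1 -0.07. The U7 particle protein Lsm10 had 0.12. Zfp473 was under the filter at 0.331 to 0.475 FPKM, and the U7 RNA itself was not analysed here.

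Replacement histones, most of which can be made outside S phase from polyadenylated mRNAs, held the 1 histone gene that passed. H1f0 fell, from 205, 157 and 140 FPKM in wild-type to 57.6, 85.8 and 66 FPKM in the mutant libraries. Every mutant library was well below the lowest wild-type library, at means of 167 ± 33.5 and 69.8 ± 14.5 FPKM (SD, n = 3; log2 fold change -1.25, SE 0.2, limma adjusted p = 0.03). Its log2 fold change was negative in all 16 alternative settings, and it passed in 8. Leaving out wild-type column 0, 1 or 2 gave limma adjusted p-values of 0.085, 0.094 and 0.073, and leaving out mutant column 0 or 2 gave 0.057 and 0.1. The log2 fold changes in the fits without 1 library ran from -1.41 to -1.09. With the Y-linked covariate the log2 fold change was -1.86, with a limma adjusted p of 0.14. The other linker variant, H1fx, was 4.12, 3.22 and 3.45 FPKM against 4.28, 1.23 and 1.37 FPKM, with overlap (log2 fold change -0.59, SE 0.349, limma adjusted p = 0.35). Without mutant column 0 it was -0.99, with a limma adjusted p of 0.032. Of 11 variants tested, 1 fell and 0 rose. H3f3b, which encodes the replacement form of H3, had the highest mean of the list and overlapped (log2 fold change 0.11, SE 0.185). H2afy2, a macroH2A gene, was 12.1, 11 and 10.7 FPKM against 14, 12.9 and 13.9 FPKM (log2 fold change 0.25, SE 0.0726, limma adjusted p = 0.11).

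Histone chaperones escort new histones to DNA, and of 20 tested 0 rose and 0 fell by limma (median log2 fold change 0.04, 2 with an unadjusted p under 0.05, beside 24.7% of all genes). Daxx, a chaperone of replacement H3, was 11.6, 11 and 10.4 FPKM in the wild-type and 8.71, 8.99 and 9.31 FPKM in the mutant libraries (log2 fold change -0.26, SE 0.0673, limma adjusted p = 0.083). Both subunits of FACT, which moves nucleosomes aside, were without overlap and higher, with log2 fold changes of 0.16 for Supt16 and 0.12 for Ssrp1. Of the 20 genes, 3 were without overlap and higher and 2 without overlap and lower, beside 16.3% and 15.9% of all genes. Rbbp7, the most abundant of the list, had 0.09.

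Histone mRNA is tied to S phase, so genes of DNA replication and mitosis were set beside it. Of 30 S phase genes, 0 rose and 0 fell by limma, with a median log2 fold change of 0.07. At an unadjusted p under 0.05, 4 were higher and 1 lower, beside 12.7% and 12% of all genes, so the count of higher genes was near the background. Cdca7 was 15.2, 14.9 and 13.2 FPKM in the wild-type and 21.9, 18.7 and 18.2 FPKM in the mutant libraries (log2 fold change 0.41, limma adjusted p = 0.066). Genes of the replicative helicase, Mcm4 and Mcm6, were also without overlap and higher, with log2 fold changes of 0.3 and 0.36 (limma adjusted p = 0.078 and 0.12). Of the 30 genes, 3 were without overlap and higher, beside 16.3% of all genes. Another 2, Hells and Pold3, were without overlap and lower, beside 15.9% of all genes. Pcna, the sliding clamp of DNA polymerase, overlapped, with 0.25. Of 20 mitosis genes, 0 rose, 0 fell and 0 had an unadjusted p under 0.05 by limma. Their median was -0.13, and 18 of 20 were below 0, beside 7086 of 14012 genes. Mki67 had -0.36, Bub1 -0.23, Top2a -0.19 and Cdk1 -0.13, and all of these turned above 0 with the Y-linked covariate.

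By library, the S phase list stood at a median log2 difference from the wild-type mean of 0.17, -0.15 and 0 in the wild-type and 0.1, 0.02 and 0.02 in the mutant libraries. Core histone genes stood at 0.44, -0.32 and -0.12 against 0.13, -0.29 and -0.07. In both, wild-type column 0 was highest and wild-type column 1 lowest. H1 genes stood at 0.38, -0.12 and -0.17 against -0.37, -0.66 and -0.8. The mitosis list stood at 0.22, -0.23 and 0 against 0.35, -0.27 and -0.39, with both column 0 libraries high.

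**Figure D5:**
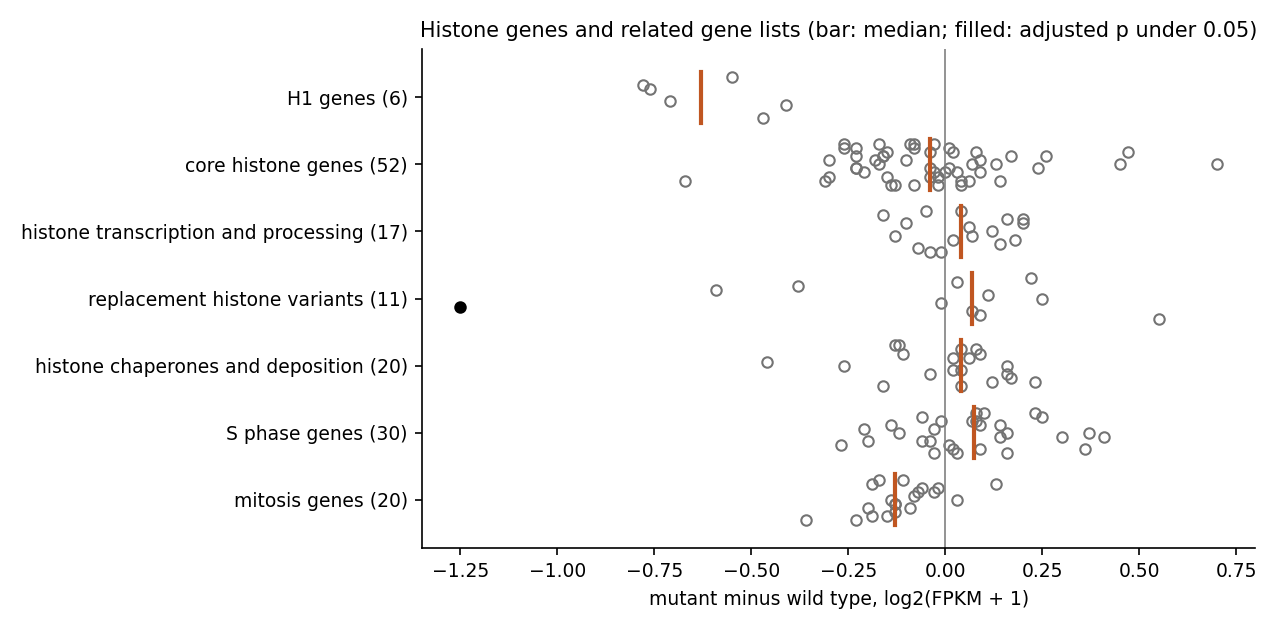
Log2 fold change, mutant minus wild type on the log2(FPKM + 1) scale, of each tested gene in the H1 and core histone groups and in 5 related lists, with the number tested in brackets and the median as an orange bar. The H1 median lies at -0.63 while the other medians lie between -0.13 and 0.07, and the 1 filled point is H1f0 at -1.25.

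RNAs that, like histone mRNAs, lack a regular poly(A) tail showed how such transcripts varied in these libraries made from total RNA. Of 8 tested, 0 rose, and the 1 with a limma adjusted p under 0.05 was Rn7sk. It passed the filter only through the wild-type libraries, so it is not counted as fallen. The groups did not overlap in 5 that were higher and 1 that was lower, where 16.3% and 15.9% of all genes were. Rn7sk, the RNA that holds the elongation factor P-TEFb inactive, was 49844, 42394 and 45407 FPKM in wild-type libraries and listed at 0 in all 3 mutant libraries. An exact 0 for so abundant an RNA can be a failed estimate, so only the listed values are given. Rny1 was 618, 497 and 820.1 FPKM against 1189.7, 1395 and 906 FPKM (log2 fold change 0.86, SE 0.242, limma adjusted p = 0.1). Rmrp was 20788, 14159.9 and 14823 FPKM against 23882, 23363 and 21078 FPKM (log2 fold change 0.48, SE 0.232, limma adjusted p = 0.27). Rny3 had a log2 fold change of 0.62, with no overlap. Of the RNAs of this list that were tested, Rn7sk was the only one with all mutant values below the wild-type values.

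The genes whose levels most resembled summed histone mRNA over the 6 libraries were found by Pearson correlation of log2 values among 9305 non-histone genes averaging 5 FPKM or more. They were Gm26413 (r = 0.992), Nt5dc2 (0.982), Tubgcp2 (0.982), Ndufa2 (0.975) and Tacc3 (0.973). Tacc3, a spindle protein, was 43.1, 30.1 and 33 FPKM in the wild-type and 39.1, 28.3 and 28.5 FPKM in the mutant libraries. Like the core histone genes it was highest in both column 0 libraries. The values are a description of 6 libraries that share their preparation, chosen as the highest of many, with no test.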

How the data were processed

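The analysis started from FPKM, which the authors deposited as a single table with 27734 rows and 6 columns of libraries. Per the submitters' processing notes, STAR, Cufflinks and Cuffdiff were used with build mm10, and per the labels' protocols libraries were stranded, from total RNA depleted of rRNA, read as 50-base single ends. How reads matching several genes were shared is not given in the sources used here. Read depth is unknown from FPKM, so no counting intervals are given. Columns numbered 0 and 1 matched sample descriptions, and columns 2 matched a group only. The members and lists were chosen with earlier results of these data known. Values were transformed as log2(FPKM + 1), filtered at a mean of 1 FPKM over 6 libraries, which left 14012 genes, and tested two-sided by lmFit and eBayes with trend (limma 3.58.1, R 4.3.3), with Benjamini-Hochberg adjustment over all genes. The fit was tested on simulated data. An exact permutation test of 3 against 3 cannot go below 0.1 and was not used. Gene models and window uniqueness came from GENCODE M21, in which 27578 identifiers (99.4%) matched, and promoters from RefSeq. Histone genes matched 54 promoter windows by symbol. Named were the 3 highest genes of each class, those outside the main cluster, all processing genes and, of each other list, the 2 highest and the 2 with the smallest p, of which some are left out. The other H1 genes, Hist1h3g, Hist1h4n and Hist1h2ai were chosen after their values were seen. Alternatives were 2 other pseudocounts (0.1 and 0.5), other filters, scaling and quantile normalization, a robust prior, leaving out each library, a replicate block, a Y-linked covariate and protein-coding genes only.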

Additional observations from a re-analysis of the deposited data

How the results depend on the processing

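The H1 genes tested were all below 0 in every setting but the Y-linked covariate, and the core median changed sign between settings that left out different libraries. Genes passing over the whole table numbered 850 as reported, 461 with no filter, 174 to 666 when 1 library was left out, 60 with the replicate block, 236 with the Y-linked covariate and 1373 with protein-coding genes only. Whether the replicate numbers pair the libraries is not given in the sources used here. Over all genes tested, same-numbered libraries correlated at -0.0328, -0.0421 and -0.0226 in their deviations from the group means. Among core histone genes, wild-type and mutant column 0 were nonetheless the 2 highest libraries for 30 of 52. With the block 0 histone genes passed. Histone genes that rose numbered 1 with a minimum mean of 5 FPKM, 0 to 1 with 1 library left out and 1 with protein-coding genes only. Those that fell numbered 1 with quantile normalization, 0 to 1 with 1 library left out and 2 with protein-coding genes only. The H1f0 call made the replacement variant count 1 and was lost, leaving 0, with no filter, the replicate block and the Y-linked covariate. With 1 library left out the count ran from 0 to 1: H1f0 itself passed without mutant column 1, and H1fx passed in its place without mutant column 0. S phase genes rising numbered 1 with protein-coding genes only. With the Y-linked covariate 1 mitosis gene and 1 noncoding RNA rose. The noncoding RNA count of 1, from Rn7sk, was 0 with protein-coding genes only, since none was then tested. For the other changes the cause was not tested.

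With the Y-linked covariate, log2 fold changes turned to 0.18 for Hist1h1e, 0.09 for Hist1h1d, 0.12 for Hist1h1b, 0.03 for Hist1h1t, 0.39 for Hist1h2ak, 0.54 for Hist2h2ac, 0.72 for Hist1h2ab, 0.45 for Hist2h2bb, 0.35 for Hist1h3b, 0.92 for Hist1h4d, 0.66 for Hist1h4c, 0.56 for Hist2h2ab, 0.18 for Hist2h2be, -0.46 for Hist3h2bb-ps, 0.81 for Hist2h3c2 and 0.69 for Hist2h4. Among other genes they turned to -0.04 for Npat, -0.28 for Lsm10, 0.57 for Sympk, -0.22 for Cpsf2, 0.55 for Upf1, 0.26 for Lsm1, 0.2 for Cdk1, 0.66 for Top2a, 0.72 for Mki67, 0.48 for Bub1, 0.46 for Col9a3, 1.36 for Col11a2, 0.33 for Acta1, -2.19 for Pecam1, -1.44 for Emcn, -1.66 for Cdh5 and -0.39 for Bglap. With quantile normalization they turned to -0.03 for Hist1h2bj and -0.05 for Hist1h4h.

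With 1 library left out, log2 fold changes crossed 0 and ran from -0.45 to 0.01 for Hist1h2ak, -0.14 to 0.2 for Hist2h2ac, -0.25 to 0.2 for Hist1h2ab, -0.37 to 0.01 for Hist2h2bb, -0.19 to 0.28 for Hist1h2bj, -0.35 to 0.07 for Hist1h3a, -0.21 to 0.32 for Hist2h3b, -0.34 to 0.09 for Hist2h3c2, -0.23 to 0.21 for Hist1h4d, -0.18 to 0.22 for Hist1h4c, -0.18 to 0.38 for Hist1h4h, -0.19 to 0.06 for Hist2h4 and -0.07 to 0.31 for Hist3h2bb-ps. Among other genes they ran from -0.28 to 0.02 for Cdk1, -0.05 to 0.08 for Cpsf2, -0.04 to 0.03 for Cstf2, -0.04 to 0.23 for H3f3b, -1.14 to 0.49 for Ibsp, -0.28 to 0.22 for Lsm1, -0.18 to 0.17 for Pou2f1 and -0.16 to 0.03 for Sympk.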
